A study of Mus musculus with 5 samples.

Results

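Mouse embryonic stem cells that had been kept 40 days without leukemia inhibitory factor (LIF) were compared with the same labelled cells after a 24 hour withdrawal. Both libraries came from E14 cells, an embryonic stem cell line, which the labels describe as Hk2 and Pkm2 overexpressed. Hexokinase 2 (Hk2) and pyruvate kinase M2 (Pkm2) are enzymes at the first and the last step of glycolysis. The labels give the strain of all samples as C57BL/6. In the 24 hour culture LIF was given again after the withdrawal, and the labels do not state how long after its return the cells were harvested. The pair therefore differs both in the length of the withdrawal and in the return of LIF. Normal E14 cells and Hk2/Pkm2 cells with LIF, and normal E14 cells after the same 24 hours, make up the other 3 of the 5 libraries. A 40 day library of normal cells was not analysed here, and the labels do not say whether the overexpressing cells were 1 clone or a pool.

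Of 21930 genes in the table, 13330 had a level above 0 in both libraries of the pair and were compared, and 11399 of them were above 0 in all 5 libraries. Levels are FPKM, fragments scaled to transcript length and to the mapped fragments of the library, summed over the RefSeq transcripts of a gene. The ratio is the log2 of FPKM + 1 at 40 days minus the same after 24 hours. It understates the difference of genes with low FPKM. Each side is 1 library, so no ratio has a replicate check and no test was made. "Higher" and "lower" below mean at least 2-fold on this scale unless values are given alone. Where 5 levels follow each other, the order is normal with LIF, normal 24 hour, Hk2/Pkm2 with LIF, Hk2/Pkm2 24 hour and Hk2/Pkm2 40 day.

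LIF signals through its receptor and gp130 (Il6st) to the transcription factor Stat3, and this signal holds mouse embryonic stem cells in the naive state, in which Klf4, Esrrb, Tfcp2l1, Zfp42 and their partners are expressed. Cells that lose the signal pass through a primed, epiblast-like state or leave pluripotency. One exit leads to extraembryonic endoderm, whose factors Gata6, Gata4 and Sox7 drive a secretory and absorptive programme. Its parietal branch lays down the thick basement membrane of the yolk sac, and its visceral branch takes up maternal nutrients by endocytosis and breaks them down in lysosomes.

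At 40 days 1146 genes were higher, 8.6% of those compared, and 402 were lower, 3.02%. The median ratio of all genes was 0.08, and 88.4% of genes lay within 2-fold. Ratios were above 0 for 8123 genes and below 0 for 5207. Among genes called in either direction 74% were higher, and with quantile normalization the split moved to 769 higher and 601 lower, or 56.1% higher. Most of the higher genes had low levels. Where the geometric mean of the pair was 1 to 10 FPKM, 686 of 4638 genes were higher and 195 lower, whereas above 100 FPKM 14 of 449 were higher and 12 lower. The 40 day library also listed more genes at 1 FPKM or above, 9861 against 9032 to 9142 in the other 4.

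The levels of the called genes were also set beside the 3 other libraries. These genes were picked for a 40 day level far from the 24 hour one, which favours both libraries as extremes. The same shares over all genes were not computed, so those below describe the called genes and do not decide which library stood apart. Of the 1146 higher genes, 1015 (88.6%) had their highest level of all 5 libraries at 40 days, and 496 (43.3%) were at least 2-fold above each of the other 4. Of the 402 lower genes, 317 (78.9%) were lowest at 40 days and 149 (37.1%) by at least 2-fold. For 92 of the higher and 54 of the lower genes the 40 day level lay inside the range of the 3 other libraries while the 24 hour level lay outside it. The 24 hour level lay inside that range for 513 (44.8%) of the higher and 179 (44.5%) of the lower genes, so for the larger share of called genes the 24 hour library also lay outside the 3 others.

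**Figure D1:**
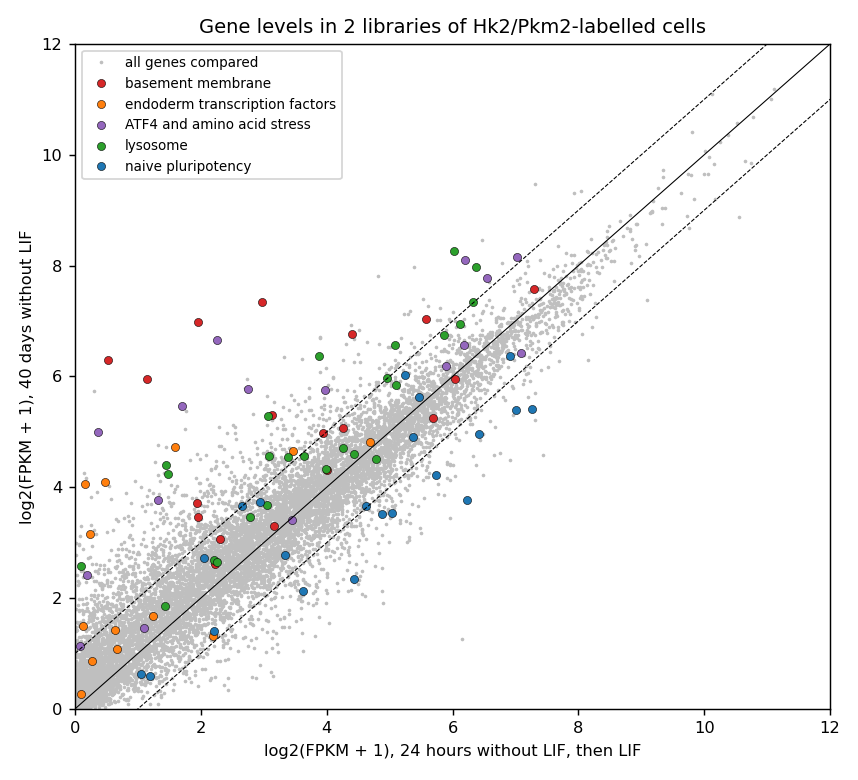
Level of each of the 13330 genes after 24 hours (x axis) and at 40 days (y axis), both as log2(FPKM + 1); dashed lines mark 2-fold differences and coloured points are members of 5 gene lists. Basement membrane, endoderm factor, ATF4 and lysosome genes lie mostly above the diagonal, and naive pluripotency genes mostly below it.

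The labelled genes did not mark the 40 day cells. Hk2, which commits glucose to glycolysis, stood at 76.2, 49.7, 98.6, 59.0 and 29.0 FPKM, lowest at 40 days. Pkm, with 1 transcript listed so that splice forms share 1 value, stood at 510, 611, 567, 564 and 495 FPKM, again lowest at 40 days. At 40 days neither gene was above either normal library, and there was no 40 day library of normal cells to set beside it. With LIF both genes were above the normal cells, Hk2 at 98.6 against 76.2 FPKM and Pkm at 567 against 510. After 24 hours Hk2 was above them, at 59.0 against 49.7 FPKM, and Pkm was not, at 564 against 611. The 40 day RNA levels alone thus do not show the overexpression that the label states, and its cause was not tested. Genes of the Y chromosome also differed within the cells labelled Hk2/Pkm2. The helicase Ddx3y stood at 11.8 FPKM in both normal libraries, at 0.0225 and 0.013 in the Hk2/Pkm2 cells with LIF and after 24 hours, and at 1.79 at 40 days. The histone demethylase Uty stood at 3.25, 3.74, 0.00973, 0.0113 and 0.369 FPKM. For both genes the 40 day library thus lay between the normal and the earlier Hk2/Pkm2 libraries. Eif2s3y, a translation factor subunit, was instead lowest at 40 days, at 34.1, 35.1, 16.3, 22.6 and 4.58 FPKM. The part of these differences between cultures in the results that follow was not tested.

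All 5 defining pluripotency markers stood at 1 FPKM or above in each of the 5 libraries. Summed over these 5 markers, levels ran from 1400 to 1820 FPKM in the 4 other libraries and stood at 1020 FPKM at 40 days. Pou5f1 (Oct4), the central pluripotency factor, stood at 1090, 987, 1080, 1020 and 807 FPKM and made up most of each sum. Among the other markers Sox2 was at 186 FPKM after 24 hours and 93.0 at 40 days, Nanog at 54.5 and 29.6, and Zfp42 at 128 and 40.9. Sall4 went the other way, from 30.8 to 45.6 FPKM. The 6 endoderm markers summed to between 2.91 and 5 FPKM in the 4 other libraries and to 103 FPKM at 40 days, although one of them, Sox17, was listed at 0 there. In a bulk library more cells of a type and more RNA per cell cannot be told apart.

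Of 16 endoderm transcription factors 13 were compared. At 40 days 6 (46.2%) were higher, beside 8.6% of all genes, and 0 lower. The median ratio was 0.78 against 0.08 over all genes, and 5 of the 6 exceeded each other library at least 2-fold. Gata4 stood at 1.51, 1.32, 1.19, 1.99 and 25.6 FPKM, a ratio of 3.15. Gata6, which starts the primitive endoderm programme, stood at 0.13, 0.0912, 0.248, 0.177 and 7.88 FPKM, a ratio of 2.92. Sox7, a partner of the GATA factors, stood at 3.02, 0.361, 2.64, 0.388 and 16.1 FPKM, a ratio of 3.62. All of these were highest at 40 days, with Sox7 also several times higher with LIF than after 24 hours in both cell kinds. Foxq1, a forkhead factor, stood between 0.0731 and 0.123 FPKM in the 4 other libraries and at 15.6 FPKM at 40 days, a ratio of 3.90.

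The forkhead factor Foxa2 stood at 0.116, 0.0929, 0.0271, 0.087 and 1.8 FPKM, and its relative Foxa1 reached only 0.812 FPKM at 40 days. Klf6, the least shifted of the 6, stood at 12.6, 21.2, 4.42, 10 and 24.3 FPKM. Eomes, Gsc and Hnf4a, all on the list, did not share the pattern. Eomes stood at 3.58 FPKM after 24 hours and at 1.5 at 40 days, Gsc stayed at or below 0.199 in all 5 libraries, and Hnf4a, a factor of mature visceral endoderm, was listed at 0 in both libraries of the pair. With the list limited to genes of at least 1 FPKM in both libraries, 2 factors counted as higher, since Gata6, Sox7, Foxq1 and Foxa2 were below 1 FPKM after 24 hours.

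Visceral endoderm absorbs proteins through a receptor complex of cubilin, amnionless and megalin, which the adaptor Dab2 carries into the cell. Dab2 stood at 0.213, 1.09, 0.276, 0.236 and 52.0 FPKM, a ratio of 5.42. Amnionless (Amn) stood at 0.331, 0.238, 0.426, 0.456 and 15.3 FPKM, a ratio of 3.49. Megalin (Lrp2) stood at 1.26, 7.65, 2.64, 10.1 and 46.7 FPKM, a ratio of 2.11. The 3 genes shared their highest level at 40 days, and Lrp2 was also higher in both 24 hour libraries than with LIF. Lrpap1, the chaperone of megalin, stood at 45.4, 39.9, 35.3, 34.7 and 85.4 FPKM. Cubilin (Cubn) was listed at 0 after 24 hours, stood at or below 0.0896 FPKM in the 3 other libraries, and reached 40.1 FPKM at 40 days.

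Of 28 visceral endoderm genes in the table, uptake genes included, 17 could be compared. Of these 7 (41.2%) were higher, beside 8.6% of all genes, and 0 lower, with a median ratio of 0.76. Secreted products on the list differed among themselves. Afp, Apoa4 and Alb were listed at 0 in all 5 libraries, Apob was at 0 in both libraries of the pair, and Ttr reached 0.166 FPKM at 40 days. The retinol carrier Rbp4 stood at 0.258, 0.237, 0.301, 0 and 1.36 FPKM, and the pepsinogen Pga5 at 2.11, 0, 0, 0.148 and 5.62 FPKM, both highest at 40 days. Apoe, an apolipoprotein that stem cells express at a high level, stood at 969, 624, 485, 243 and 290 FPKM. The hedgehog ligand Ihh stood at 1.85 FPKM at 40 days and at or below 0.168 in the other libraries.

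The secreted scaffold of collagen IV and laminin, with the endoplasmic reticulum enzymes that fold it, included 4 of the 15 highest ratios of the comparison. Of 18 genes compared 10 (55.6%) were higher, beside 8.6% of all genes, and 0 lower, with a median of 1.26. Of the 10, 8 exceeded every other library at least 2-fold, beside 43.3% of all higher genes. Lama1, the alpha chain of the main embryonic laminin, stood at 17.4, 2.52, 23.9, 0.436 and 77.3 FPKM. Its ratio of 5.77 was the highest of all genes above 0 in the 5 libraries. Both 24 hour libraries were low and both libraries with LIF were intermediate, so part of the Lama1 ratio lay in the 24 hour level. The gene lies on chromosome 17 of the mm9 build, from 68046605 to 68171985, on the plus strand. Its partner chains differed less, with Lamb1 at 19.9, 22.4, 14.2, 20.1 and 108 FPKM and Lamc1 at 66.5, 47.3, 78.8, 46.7 and 131 FPKM.

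Col4a1 and Col4a2 encode the 2 chains of the main collagen IV trimer. Col4a1 stood at 1.96, 1.92, 4.87, 2.86 and 125 FPKM, and Col4a2 at 0.927, 0.565, 1.88, 1.2 and 60.9 FPKM, with ratios of 5.03 and 4.82. The 40 day level stood apart for both, with no overlap with the other 4 libraries. The genes lie head to head on chromosome 8 (mm9), Col4a1 from 11198423 to 11312826 on the minus strand and Col4a2 from 11312805 to 11449287 on the plus strand. Because the library kit does not mark strand, fragments from the shared end were not separated.

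The collagen chaperone Serpinh1 (Hsp47) stood at 5.69, 4.81, 9.76, 6.83 and 162 FPKM, a ratio of 4.38. The collagen lysyl hydroxylase Plod2 stood at 7.18, 11, 6.81, 7.71 and 38.4 FPKM, a ratio of 2.18. Prolyl hydroxylase subunits P4ha1 and P4ha2 had ratios of 1.49 and 1.78. The paralogous lysyl hydroxylases Plod1 and Plod3 had ratios of 0.15 and 0.30, and P4hb, which also serves general protein folding, 0.27. Of 26 general secretory folding genes compared 2 (7.69%) were higher, beside 8.6% of all genes, and 0 lower, with a median of 0.08. Other matrix genes stayed near their level, with Nid2 at −0.09 and fibronectin (Fn1) at −0.43. Perlecan (Hspg2) was listed at 0 after 24 hours but stood at 21.9 to 39.8 FPKM in the 4 other libraries. Sparc stood at 0, 50.3, 74.3, 5.6 and 0 FPKM, and was read neither way.

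Parietal endoderm markers overlapped with other lists, sharing Sox7 with the endoderm factors, Lamb1 and Sparc with the basement membrane genes, and Ctsl and Lgmn with the lysosomal genes. Of 13 compared 11 (84.6%) were higher, beside 8.6% of all genes, and 0 lower, with a median of 2.25. The receptor Pth1r, which marks parietal endoderm, was listed at 0 in normal cells with LIF, stood between 0.0645 and 0.318 FPKM in the 3 next libraries and reached 8.84 FPKM at 40 days. Pdgfra, an early primitive endoderm receptor, stood at 0.0938, 0, 0.11, 0.0914 and 4.2 FPKM. Krt18, a simple-epithelium keratin, stood at 5.25, 6.44, 2.8, 5.52 and 54.2 FPKM, and its partner Krt8 at 11.2, 5.94, 6.2, 2.54 and 21.6 FPKM. Snai1, a zinc finger factor of parietal differentiation, stood at 2.58, 1.55, 1.45, 0.686 and 3.94 FPKM, and its ratio of 1.55 was 0.96 against the normal 24 hour library. Vimentin, another parietal marker, was not higher, with a ratio of −0.23. Thrombomodulin (Thbd) reached 0.242 FPKM at 40 days. The list count was 5 when at least 1 FPKM was asked for in both libraries.

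**Figure D2:**
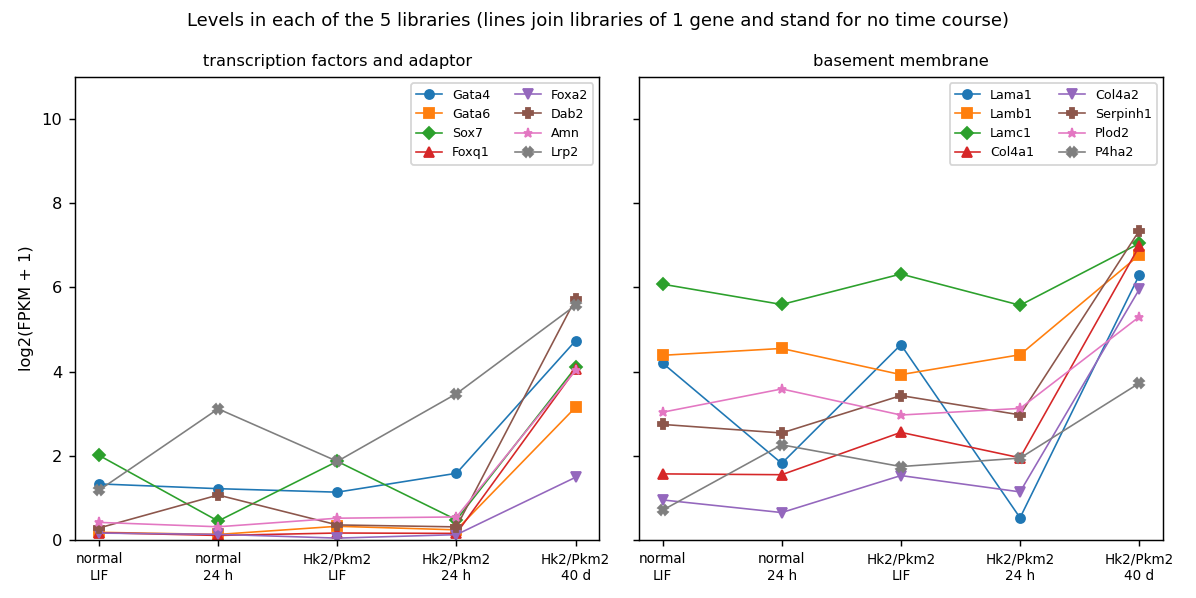
log2(FPKM + 1) of 8 endoderm factor or uptake genes (left) and 8 basement membrane genes (right) in each of the 5 libraries, 1 point per gene and library, with lines that join the points of a gene and stand for no time course. Every gene shown has its highest level in the 40 day library, and Lama1 and Sox7 also show a lower level in both 24 hour libraries than with LIF.

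Markers of other lineages were at low levels. Of 12 mesoderm genes compared 0 were higher and 1 lower, and 4 defining mesoderm markers summed to 1.8 FPKM at 40 days. Of 14 trophoblast genes 4 were higher, all of them simple keratins that endoderm epithelium shares, while Cdx2 stood at 0.294 FPKM and Prl3d1 and Tpbpa were listed at 0 in all 5 libraries. Of 15 fibroblast and feeder genes 2 (13.3%) were higher and 0 lower, with 12 ratios above 0 and a median of 0.37. Over all genes 8.6% were higher, and 8123 of 13330 ratios were above 0. The 2 were the secreted Ccn1, at 5.64 FPKM after 24 hours and 61.0 at 40 days, and the lysyl oxidase Loxl2, at 2.25 and 9.66 FPKM. The fibroblast collagens on the list were near 0, with Col1a1 at 0.165, Col1a2 at 0.139 and Col3a1 at 0.0501 FPKM at 40 days. Of 16 neural genes 2 were higher and 0 lower.

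Of 20 epithelial junction genes 8 were higher and 1 lower, with a median of 0.62, beside 8.6% higher and 3.02% lower over all genes. Cldn6 stood at 12.2, 34.5, 1.66, 11.2 and 78.7 FPKM and Cldn7 at 5.66, 11.7, 0.959, 3.88 and 32.9 FPKM, both being claudins that seal tight junctions. They were the only higher genes of 17 claudins compared, whose median was 0.16. E-cadherin (Cdh1) stood at 56.0, 125, 33.0, 94.4 and 208 FPKM. Cldn6, Cldn7 and Cdh1 were higher after 24 hours than with LIF in both cell kinds and highest at 40 days. Grhl2, a factor that maintains epithelial genes, stood at 3.32, 16.5, 1.8, 21.7 and 10 FPKM and was the member that was lower.

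ATF4 is translated when eIF2alpha is phosphorylated and turns on genes of amino acid import, redox balance and cell death control through a composite C/EBP-ATF element. Of 16 genes on the ATF4 list compared, 11 (68.8%) were higher, beside 8.6% of all genes, and 0 lower, with a median of 1.5. Of the 11, 8 exceeded every other library at least 2-fold, beside 43.3% of all higher genes. Atf4 itself stood at 136, 127, 141, 93.0 and 218 FPKM, a ratio of 1.22. Chac1, which degrades glutathione, stood at 3.85, 2.29, 5.75, 3.75 and 100 FPKM, a ratio of 4.42. Atf3, a stress-response factor, stood at 0.607, 0.63, 0.502, 0.289 and 30.9 FPKM, a ratio of 4.63. For Chac1 and Atf3 the 40 day library stood far above the other 4, which did not pass 5.75 FPKM.

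Promoter windows of the ATF4 list members that hold the letters of the element are shown because these genes include the 3 largest ratios of the list. TTGCATCA was searched on both strands, also as TGATGCAA, from 250 bases before to 50 bases after each start, in RefSeq promoters of GRCm38.p6, and the motif was chosen after the values had been seen. Promoters were matched for 12 of the 16 genes, and 5 of them held it. It was in 294 of 32851 promoters (0.895%), in 73 of 10577 matched genes of the comparison (0.69%) and in 17 of 898 matched higher genes (1.89%). Each window is printed 5′ to 3′ on the strand of its gene, with the motif in capitals.
Atf3, chr1:191183410-191183469, minus strand: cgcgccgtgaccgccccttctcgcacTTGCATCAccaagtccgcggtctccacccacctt
Chac1, chr2:119351023-119351082, plus strand: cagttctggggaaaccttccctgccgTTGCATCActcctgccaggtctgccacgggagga
Nupr1, chr7:126625547-126625606, minus strand: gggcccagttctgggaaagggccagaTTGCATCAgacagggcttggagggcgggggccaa
Vldlr, chr19:27216794-27216853, plus strand: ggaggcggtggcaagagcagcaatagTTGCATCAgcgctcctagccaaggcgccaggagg
Slc7a11, chr3:50443646-50443705, minus strand: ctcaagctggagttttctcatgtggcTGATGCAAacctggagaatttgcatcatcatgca
The motif lies 102 bases before the start of Atf3, 185 before that of Chac1, 102 before that of Nupr1 and 192 before that of Vldlr. Slc7a11 holds it on both strands, 58 and 39 bases before the start.

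Carrying the letters did not sort the list. Of the 5 genes with the motif 4 were higher, and of the 7 matched genes without it 5 were higher. Nupr1, a stress-induced chromatin protein, stood at 3.5, 1.14, 5.8, 2.24 and 43.1 FPKM, and the lipoprotein receptor Vldlr at 0.0295, 0.164, 0.0751, 0.14 and 4.3 FPKM. Slc7a11, the cystine importer, had the motif and a ratio of 0.38, from 1.13 to 1.76 FPKM. Among the other list members, which include genes without a matched promoter, the pseudokinase Trib3 stood at 7.95, 3.07, 11.6, 5.69 and 53.4 FPKM. Slc3a2, the heavy chain shared by several amino acid transporters, stood at 83.2, 55.2, 86.2, 72.3 and 272 FPKM, and its light chain Slc7a5 at 122, 108, 145, 129 and 284 FPKM. Ddit4, an inhibitor of mTORC1, stood at 13.5, 24.1, 11, 14.7 and 53.2 FPKM. The arginine and lysine importer Slc7a3 went the other way, from 135 FPKM after 24 hours to 85.1, a ratio of −0.66. Ddit3 (Chop) and Atf5 were listed at 0 in all 5 libraries and could not be read.

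Of 25 lysosomal genes compared 11 were higher and 0 lower, with 24 ratios above 0 and a median of 0.93. Over all genes 8.6% were higher, and 8123 of 13330 ratios were above 0. The summed level of the list was 601 to 922 FPKM in the 4 other libraries and 1510 FPKM at 40 days. Cathepsin L (Ctsl), a protease abundant in parietal and visceral endoderm, stood at 36.0, 58.9, 44.1, 63.9 and 305 FPKM, a ratio of 2.23. The protease legumain (Lgmn) stood at 14.1, 15.4, 14.4, 13.7 and 81.2 FPKM, a ratio of 2.48. Cathepsin Z (Ctsz) stood at 35.1, 32.8, 29.3, 32.8 and 93.8 FPKM. All 3 proteases were highest at 40 days, with no overlap with the other 4 libraries. Cathepsin C (Ctsc) was also highest there, at 2.39, 1.17, 2.53, 1.78 and 17.8 FPKM.

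In some members the 24 hour library was the one apart. Ctsa, which protects lysosomal glycosidases, stood at 13.7, 10.6, 12.8, 1.73 and 20.2 FPKM, so that its ratio of 2.96 was 0.87 against the normal 24 hour library. The hexosaminidase subunit Hexa stood at 41.7, 24.4, 21.1, 7.37 and 37.9 FPKM, and its 40 day level lay inside the range of the others. Lamp1, a membrane glycoprotein, stood at 198, 180, 153, 81.4 and 249 FPKM. Against the normal 24 hour library 8 lysosomal genes were higher, and the median was 0.61. Tfeb, a regulator of lysosomal genes, was not higher at 40 days than with LIF, at 32.9, 3.94, 20.7, 1.69 and 2.62 FPKM.

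TFEB and its relatives bind the CLEAR element, and the windows of 4 higher lysosomal genes with its core are shown to set the letters beside the levels. The core CACGTGAC, searched on both strands (also as GTCACGTG) in the same promoters and likewise chosen after the values were seen, was in 738 of 32851 promoters (2.25%), in 481 of 10577 matched genes of the comparison (4.55%) and in 65 of 898 matched higher genes (7.24%). It was in 7 of the 18 lysosomal genes with a matched promoter.
Ctsa, chr2:164833733-164833772, plus strand: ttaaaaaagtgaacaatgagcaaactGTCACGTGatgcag
Ctsd, chr7:142387892-142387951, minus strand: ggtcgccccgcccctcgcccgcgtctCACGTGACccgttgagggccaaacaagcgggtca
Lamp1, chr8:13159107-13159160, plus strand: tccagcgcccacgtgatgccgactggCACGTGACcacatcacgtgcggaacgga
Lgmn, chr12:102439110-102439169, minus strand: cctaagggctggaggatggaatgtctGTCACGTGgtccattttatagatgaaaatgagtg
Of the 7 genes with the core 4 were higher (those shown), and of the 11 without it 5 were higher. Cathepsin D (Ctsd), among the former, stood at 134, 120, 100, 79.2 and 162 FPKM.

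**Figure D3:**
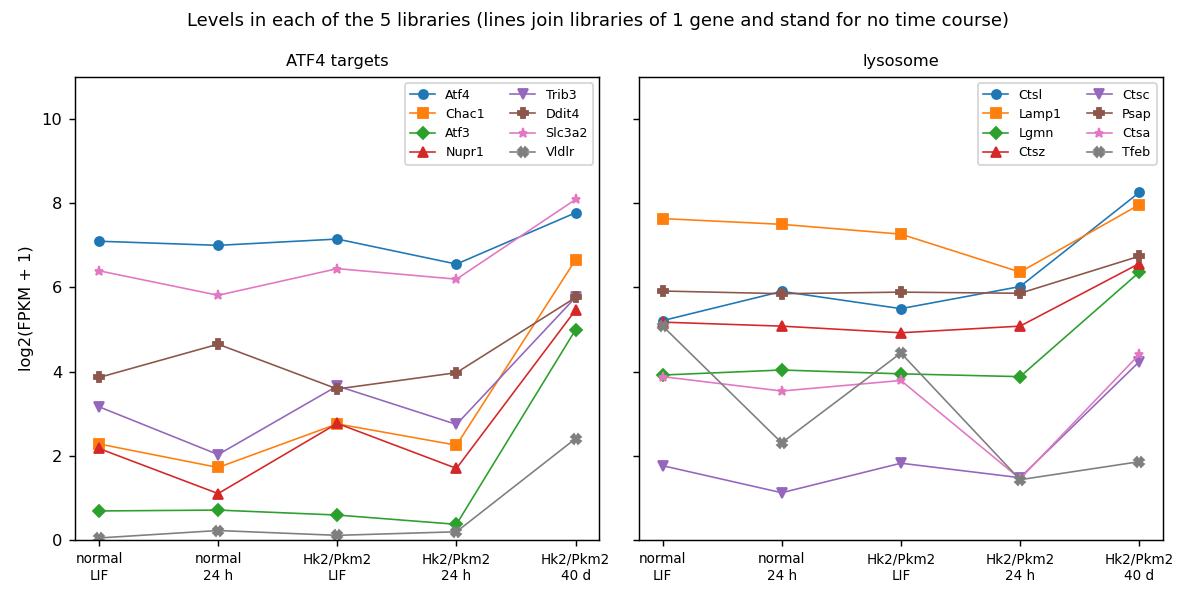
log2(FPKM + 1) of 8 ATF4 list genes (left) and 8 lysosomal genes (right) in each of the 5 libraries, 1 point per gene and library; lines join the points of a gene and stand for no time course. All but Tfeb are highest at 40 days. Atf4, Atf3, Ctsa, Lamp1, Tfeb and, by a small margin, Lgmn are lowest in the Hk2/Pkm2 24 hour library.

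Naive genes leaned lower at 40 days. Of 21 naive genes compared 9 (42.9%) were lower, beside 3.02% of all genes, and 1 higher, with a median of −0.79. Each of the 9 was lower than in any other library by at least 2-fold, beside 37.1% of all lower genes. Zfp42 (Rex1) stood at 266, 118, 278, 128 and 40.9 FPKM, a ratio of −1.62. Gbx2, a naive factor under LIF control, stood at 43.8, 19.6, 48.0, 20.7 and 4.05 FPKM, a ratio of −2.11. Both were already lower in the 24 hour libraries of the normal and the Hk2/Pkm2 cells than with LIF. Zfp57, which protects imprints, stood at 224, 161, 220, 153 and 41.3 FPKM, and the orphan receptor Nr0b1 at 144, 66.2, 98.9, 52.1 and 17.6 FPKM.

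Other naive factors were already low in both 24 hour libraries and less than 2-fold below the Hk2/Pkm2 one at 40 days. Esrrb stood at 157, 55.0, 139, 40.3 and 29.0 FPKM with a ratio of −0.46, and Tfcp2l1 at 59.0, 12.4, 68.6, 9.13 and 5.87 FPKM, a ratio of −0.56. Nanog stood at 150, 59.3, 183, 54.5 and 29.6 FPKM, a ratio of −0.86. In contrast Klf4 stood at 53.1, 5.48, 63.5, 6.66 and 12.3 FPKM, a ratio of 0.79, with Klf5 at 0.78 and Tbx3 at 0.67. These 3 targets of LIF were thus above their 24 hour level at 40 days and below the level with LIF.

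Of 14 core pluripotency genes 0 were higher and 3 (21.4%) lower, beside 3.02% of all genes, with a median of −0.69. Sox2 stood at 212, 175, 236, 186 and 93.0 FPKM, a ratio of −1.0, just inside 2-fold. The Nodal coreceptor Tdgf1 stood at 133, 54.3, 212, 158 and 35.9 FPKM, and the corepressor Trim28 at 809, 788, 785, 862 and 410 FPKM. Lin28a, an RNA-binding protein of stem cells, was not lower, with 144 FPKM after 24 hours and 208 at 40 days. Fgf4, the ligand through which these cells drive their own exit from the naive state, stood at 76.8, 76.8, 69.7, 84.9 and 30.3 FPKM.

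In the LIF pathway Socs3 and Stat3 did not return to their level with LIF, whereas Il6st and Pim1 stood above theirs at 40 days. Socs3, the feedback inhibitor and most direct readout of Stat3, stood at 65.3, 2.25, 64.8, 0.97 and 1.5 FPKM. Stat3 stood at 28.2, 6.26, 29.3, 5.28 and 11.7 FPKM. Both were far below the libraries with LIF at 24 hours, although LIF had been given again in that culture, and at 40 days. The receptor subunit Il6st was higher at 40 days, at 7.74, 3.16, 3.01, 2.65 and 8.5 FPKM. The kinase Pim1 stood at 31.5, 25.9, 26.4, 18.1 and 77.2 FPKM, and Junb at 64.0, 13.3, 33.6, 5.76 and 21.8 FPKM, a ratio of 1.76 that was 0.67 against the normal 24 hour library. Over the list of 19 genes compared 4 (21.1%) were higher and 1 (5.26%) lower, beside 8.6% and 3.02% of all genes.

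Primed epiblast genes differed in both directions. Of 17 compared 3 (17.6%) were higher, Krt18, Cldn6 and the kinase Pim2, and 2 (11.8%) lower, Lef1 and Foxd3. The shares over all genes were 8.6% and 3.02%. The median was −0.01, whereas the median against the Hk2/Pkm2 library with LIF was 1.83. Otx2, the factor of the primed state, stood at 1.2, 20.7, 3.13, 24.9 and 27.1 FPKM. Fgf5 stood at 0.0685, 0.52, 0.0329, 3.56 and 7.46 FPKM, and the DNA methyltransferase Dnmt3b at 35.8, 31.7, 11.2, 144 and 114 FPKM. These markers thus stayed high in both Hk2/Pkm2 libraries of the pair. Foxd3, a repressor of the primed transition, was lower, at 33.3, 25.1, 27.8, 42.9 and 11.6 FPKM. The streak factor T (Brachyury) was listed at 0 after 24 hours and stood at 0.242 FPKM at 40 days.

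**Figure D4:**
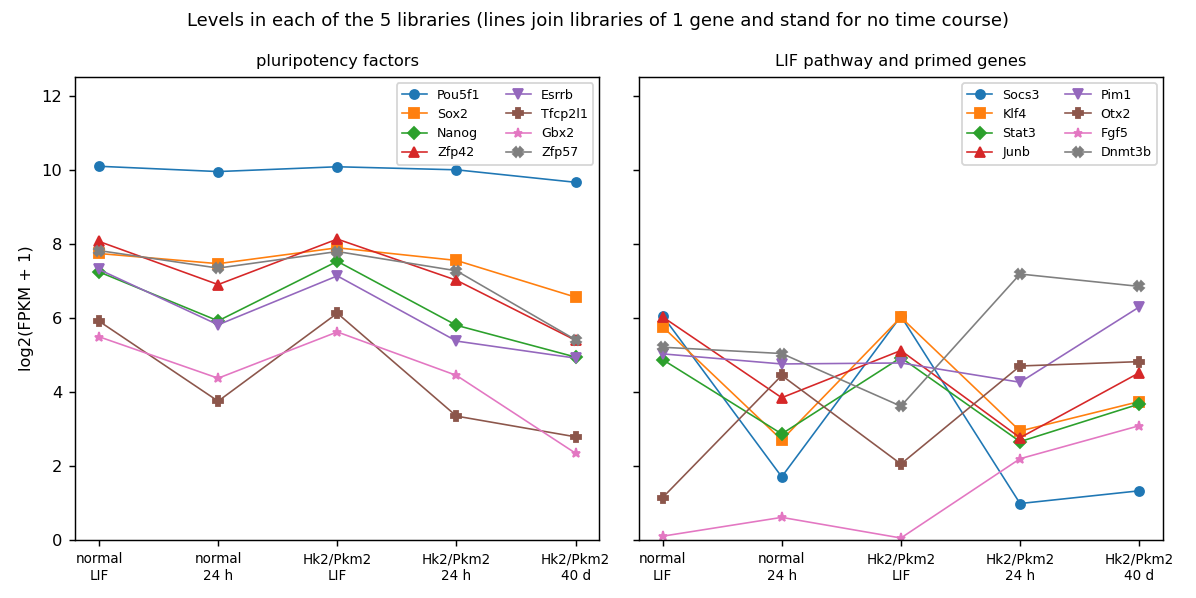
log2(FPKM + 1) of 8 pluripotency genes (left) and 8 LIF pathway or primed genes (right) in each of the 5 libraries, 1 point per gene and library; lines join the points of a gene and stand for no time course. All pluripotency genes shown are lowest at 40 days, Socs3 and Stat3 are low in all 3 libraries from withdrawal, and Otx2 is high in the same 3.

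Sterol synthesis genes leaned lower, with 22 of 23 ratios below 0, 5 genes lower, 0 higher and a median of −0.57. Over all genes 3.02% were lower, and 5207 of 13330 ratios were below 0. The isomerase Idi1 stood at 44.5, 53.7, 22.6, 28.2 and 10.1 FPKM, and Ebp, a later step of the pathway, at 3.38, 9.93, 3.4, 12.7 and 2.68 FPKM. Both were lowest at 40 days, and Ebp was high in both 24 hour libraries. Srebf2, which encodes the factor that drives the pathway, stood at 40.8, 40.7, 23.8, 38.3 and 18.9 FPKM. Hmgcs1, an early enzyme of the pathway, was listed at 0 in all 5 libraries.

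Antioxidant genes leaned the same way, with 15 of 20 ratios below 0 and a median of −0.53. Of the 20, however, 2 (10%) were lower and 1 (5%) was higher, beside 3.02% and 8.6% of all genes. Over all genes 5207 of 13330 ratios were below 0. Sod2, the mitochondrial superoxide dismutase, stood at 80.2, 21.2, 73.7, 29.1 and 11.5 FPKM. Nqo1, a target of NRF2, stood at 33.8, 40.5, 22.5, 22.1 and 11.8 FPKM. The factor itself, Nfe2l2, had a ratio of 0.10.

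Genes of glycolysis, the pathway of Hk2 and Pkm, differed in both directions. Of 18 genes compared 3 were higher and 3 lower (16.7% each, beside 8.6% and 3.02% of all genes), with a median of −0.28. Slc2a1, which imports glucose, was found at 160, 113, 151, 113 and 46.9 FPKM, while Slc2a3 stood at 65.7, 52.1, 193, 38 and 138 FPKM. The lactate transporters also differed in opposite directions, with Slc16a3 at 11.9, 27.4, 29.3, 61.8 and 23.8 FPKM and Slc16a1 at 29.0, 23.9, 32.5, 26.5 and 54.5 FPKM. The 40 day level of Slc16a3 lay inside the range of the other libraries, and its ratio of −1.34 was −0.20 against the normal 24 hour library. The phosphofructokinase Pfkm, at 8.78, 22.7, 11, 31.6 and 13 FPKM, likewise had a ratio of −1.22 that was −0.76 against that library. The paralogs of each pair thus differed in opposite directions between the 2 libraries. Of the abundant enzymes Gapdh, Ldha and Pgk1 had ratios of −0.21, 0.10 and −0.31.

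Respiratory chain genes stayed within 2-fold in all 50 members compared, with a median of −0.12. In the tricarboxylic acid cycle 3 of 28 (10.7%) were lower and 1 (3.57%) higher, beside 3.02% and 8.6% of all genes. Malic enzyme Me2 was among the lower ones with the 24 hour library apart from the rest, at 9.97, 3.97, 3.31, 38.4 and 7.28 FPKM, and its ratio of −2.25 turned to 0.74 against the normal 24 hour library. Hypoxia targets were divided, 4 higher and 4 lower of 21 (19% each). Vegfa, the endothelial growth factor, stood at 4.03, 1.92, 6.98, 1.49 and 26.1 FPKM, and the mitophagy receptor Bnip3 at 5.37, 26.4, 1.55, 23.4 and 3.08 FPKM, which put its 40 day level inside the range of the libraries with LIF.

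**Figure D5:**
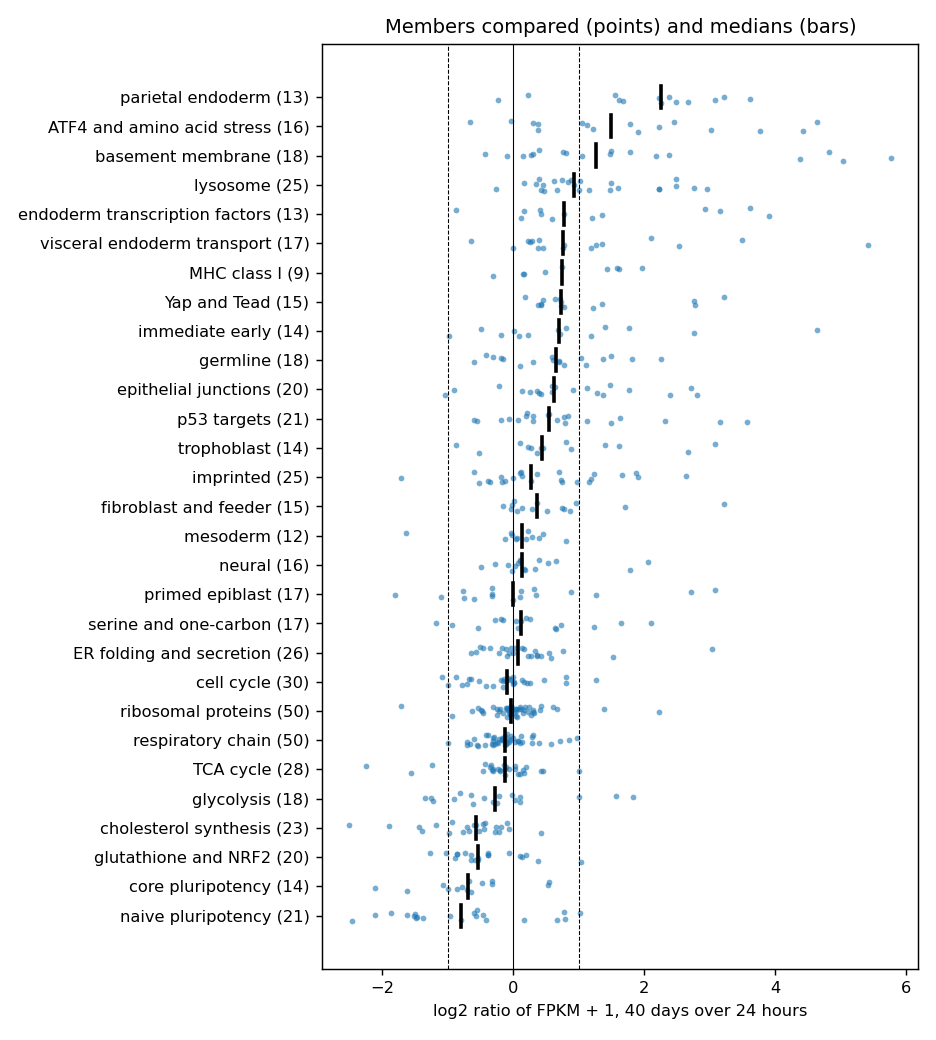
Ratios of the members compared in 29 gene lists; each point is a gene, the black bar is the list median, the number of members is in brackets, and dashed lines mark 2-fold. Parietal endoderm, ATF4 and basement membrane lists have the highest medians of those shown (2.25, 1.5 and 1.26), and naive pluripotency the lowest (−0.79).

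Of 9 MHC class I genes compared 4 (44.4%) were higher, beside 8.6% of all genes, and 0 lower, with a median of 0.74. H2-K1 and H2-D1, which present peptides to T cells, stood at 3.87, 7.55, 6.88, 11.6 and 36.5 FPKM and at 4.35, 5.18, 5.47, 7.24 and 24.1 FPKM. Their light chain B2m stood at 26.6, 20.3, 14.1, 8.67 and 36.6 FPKM. Class I genes are near-identical copies of each other, so their single values are uncertain. B2m had a ratio of 1.96 that was 0.82 against the normal 24 hour library. Interferon-induced genes did not accompany them, with 0 of 14 higher and 4 lower (28.6%, beside 3.02% of all genes). Isg15 stayed at or below 0.124 FPKM in all 5 libraries, and the membrane proteins Ifitm1, Ifitm2 and Ifitm3, themselves close copies, had ratios of −1.53, −1.21 and −1.28.

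Of 15 genes of the Yap pathway 5 were higher and 0 lower, with all 15 ratios above 0 and a median of 0.73. Over all genes 8.6% were higher, and 8123 of 13330 ratios were above 0. The secreted Yap target Ccn1 (Cyr61) stood at 22.4, 26, 6.66, 5.64 and 61.0 FPKM. Crim1 stood at 0.208, 1.06, 0.462, 0.569 and 9.71 FPKM, and Ankrd1, another target, at 0.0131 FPKM after 24 hours and 5.86 at 40 days with 0 in the 3 other libraries. Ccn2, also a target, had a ratio of 0.77 and its highest level in the normal 24 hour library.

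Genes of the p53 list were higher in 6 of 21 (28.6%), beside 8.6% of all genes, and lower in 0. Their median of 0.54 became −0.10 against the normal 24 hour library. Pmaip1 (Noxa), a killer protein of the BCL2 family, stood at 0.193, 0.586, 0.0791, 0.192 and 13.2 FPKM, and the stress cytokine Gdf15 at 1.71, 1.28, 1.84, 0.944 and 16.3 FPKM. These 2 had their highest level at 40 days by a wide margin, and both are also known to respond to ATF4. Perp, a desmosomal p53 target, stood at 34.0, 28.0, 11.7, 4.18 and 24.8 FPKM, and its ratio of 2.32 turned to −0.17 against the normal 24 hour library. Cdkn1a (p21) stood at 11.5, 13.9, 8.29, 9.1 and 17.1 FPKM. Among 30 cell cycle genes 1 was higher and 1 lower (3.33% each, beside 8.6% and 3.02% of all genes), with a median of −0.10.

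In the Nodal pathway 4 of 14 genes (28.6%) were higher and 1 (7.14%) lower, beside 8.6% and 3.02% of all genes. The inhibitor Lefty1 stood at 32.1, 32.9, 7.39, 18.8 and 94.5 FPKM, whereas the ligand Nodal had a ratio of 0.59 and the lower gene was the coreceptor Tdgf1. Imprinted genes were higher in 7 of 25 (28%) and lower in 1 (4%). Igf2, the fetal growth factor, stood at 1.6, 0.658, 1.77, 0.786 and 10.1 FPKM, its clearance receptor Igf2r at 5.62, 5.97, 5.64, 5.92 and 15.3 FPKM, and the signalling adaptor Grb10 at 9.07, 11.4, 31.1, 21.6 and 83.4 FPKM. Mest went the other way, at 59.5, 68.4, 46.5, 53.6 and 15.7 FPKM. Germline genes were higher in 6 of 18 (33.3%), among them Mael, a piRNA pathway protein, at 0.517, 1.24, 0.6, 1.8 and 12.3 FPKM.

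The remaining genes of the 15 highest ratios were Tinagl1, a matrix glycoprotein, at 1.33, 0.537, 0.763, 0.129 and 17.0 FPKM, the volume-regulated channel subunit Lrrc8d at 6.88, 7.99, 5.22, 2.41 and 40.5 FPKM, and the ER-phagy receptor Retreg1 at 0.354, 0.389, 0.198, 0.274 and 14.0 FPKM. All 15, from 3.49 to 5.77, exceeded each other library at least 2-fold. Another 8 were taken from genes listed at 0 in some other library, led by the prostaglandin transporter Slco2a1, at 0.151, 0.116, 0, 0.0985 and 18 FPKM.

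The 15 lowest ratios ran from −4.90 to −2.31, and 12 of the 15 were below each other library at least 2-fold. Hmgn2, a nucleosome-binding protein with many near-identical copies in the genome, stood at 55.3, 64.2, 58.8, 70.0 and 1.38 FPKM, and the ubiquitin enzyme variant Ube2v2 at 9.99, 10.9, 10.6, 11.3 and 1.05 FPKM. Both were near level in 4 libraries. Pebp1, an inhibitor of Raf signalling, stood at 167, 41.6, 161, 172 and 22.8 FPKM and was low in the normal 24 hour library as well. Mybl2, a cell cycle factor, stood at 109, 70.1, 91.4, 74.3 and 12.7 FPKM, and the vesicular nucleotide transporter Slc17a9 at 13.2, 4.81, 10.2, 7.82 and 0.505 FPKM. Of these 30 highest and lowest genes 8 overlap another annotated gene on mm9.

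Genes at 0 on one side had no ratio. Above 0 only at 40 days were 2021 genes, 312 of them with at least 1 FPKM, of which 177 reached 1 FPKM in one of the 3 other libraries as well and 70 were below 0.1 FPKM in all 3. Above 0 only after 24 hours were 953 genes, 203 of them with at least 1 FPKM. Since genes that every cell uses are among those at 0, such as Psmc2, a proteasome subunit at 70.6 to 92.3 FPKM in the 4 other libraries and 0 after 24 hours, an exact 0 can be a failed estimate. Of the genes seen only at 40 days, Cubn, at 40.1 FPKM, was near 0 in all other libraries.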

How the data were processed

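RNA of 5 libraries, 1 per group, was sequenced with a TruSeq kit, per the labels' protocols. The authors deposited FPKM per RefSeq transcript, and TopHat2 2.0.7, Cufflinks 2.0.2 and mm9 are named in the submitters' processing notes; how multiply mapped fragments were treated was not given in the sources used here. The kit does not mark strand, so overlapping genes were not separated. Of 28698 transcripts, 28066 were matched to symbols by accession in a RefSeq table (GRCm38.p6) and summed per gene, and 337 genes with a hyphen in any cell were left out. Of 4066 single-transcript genes, those whose FPKM times length fell in a preset window were taken to hold 1 fragment. Their median gave an estimated 3.62e+07 to 4.01e+07 fragments per library. The window bounds this estimate in advance, so it is a rough figure and not a measured depth. On it a 2 kb transcript at 1 FPKM would hold 72.5 fragments after 24 hours and 78.9 at 40 days. The counting SD would be 11.7% and 11.3%.

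Ratios used a pseudocount of 1 FPKM; calls were 2-fold. Coordinates of genes came from GENCODE vM1 (mm9), and promoters from RefSeq. The genes compared, the lists and the rule for named genes (the 15 highest and lowest ratios above 0 in every library, 8 each way among genes listed at 0 in another library, the 5 most abundant called each way, up to 5 members per list and those needed for its counts) were chosen with earlier results of these data known. Further members of a list were named after their values were seen. Python 3.11.15 with pandas 2.3.3 and numpy 2.4.6 was used, and scripts were tested on simulated data. Pseudocounts, filters, scalings, single transcripts and another 24 hour library were tried as alternatives. Some genes are not reported here.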

Additional observations from a re-analysis of the deposited data

How the results depend on the processing

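Counts of higher and lower genes depended on the treatment of low levels: 2416 and 670 with a pseudocount of 0.1, 373 and 190 with a pseudocount of 5, 755 higher with at least 1 FPKM in both libraries, and 605 lower when genes listed at 0 were kept. Higher parietal endoderm members numbered 7 with the pseudocount of 5 and 5 with at least 1 FPKM in both, where higher endoderm factors numbered 2. The other counts of all genes and of the 6 list counts tried stayed within 1.5 times. Against the normal 24 hour library, chosen after the data were seen, 128 of 183 named genes kept their call, 36 lost it and 10 reversed, among them Me2 (0.74), Irf1 (0.40), Suclg2 (−0.17), Perp (−0.17), Ptpn14 (−0.34), Gadd45b (−0.21), Tead3 (−0.05), Cbx7 (−0.08) and Ddx3y (−2.20); the rest could not be compared there. The cause was not tested. No named gene reversed under the other alternatives. With a pseudocount of 5, 48 of the 183 lost their call, with quantile normalization 12, and with upper quartile scaling 3. No paired analysis was possible because each group is 1 library. Depth limits genes well below 1 FPKM, where few fragments stand behind a value.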

Other observations

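A run of 4 neighbouring genes of chromosome 7 was lower throughout. Mylpf, a fast muscle myosin light chain, stood at 28.4 FPKM after 24 hours and 3.37 at 40 days. The cytoskeletal gene Septin1 stood at 120 and 21.4 FPKM, and the zinc finger genes Zfp553 at 28.8 and 2.77 and Zfp771 at 19.2 and 3.38 FPKM. They are consecutive among the 8647 genes with at least 2 FPKM in one library of the pair, span 43.2 kb on mm9 (134355122 to 134398317), and had a median ratio of −2.59. All 4 were lowest at 40 days of the 5 libraries. The flanking genes stayed within 2-fold, Tbc1d10b at −0.57 and Dctpp1 at −0.32. Runs of at least 3 consecutive genes numbered 18 for higher and 3 for lower genes, and the run was singled out after its values were seen.

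The longest run of higher genes was the MHC class I cluster of chromosome 17, with H2-D1, H2-Q4, H2-Q6, H2-Q7 and H2-Q10 and a median of 1.61. These are near-identical copies, so single values are uncertain. H2-Q7 stood at 0.247, 0.294, 0.397, 1.13 and 8.16 FPKM.

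Some families were also counted by name. The simple keratins are the 4 of the trophoblast list and several cathepsins are on the lysosomal list, so their counts add no separate result. Of 11 cathepsins 6 were higher with a median of 1.02, and all 4 simple keratins were higher with a median of 2.14, beside 8.6% higher over all genes. Of 16 proton pump subunits 2 were higher, with a median of 0.38, and of 70 mitochondrial ribosomal proteins 0 were higher and 3 lower, with a median of −0.16. Cytosolic aminoacyl-tRNA synthetases, several of which are ATF4 targets, had 1 of 18 higher and a median of 0.36, against 0.02 for 16 mitochondrial ones.

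Of 7 cardiac and smooth muscle genes compared 3 (Acta2, Cnn1 and Des) were higher and 0 lower, with a median of 0.17. These 3 make 42.9%, beside 8.6% higher over all genes. Acta2 stood at 0.37, 0.601, 0.0277, 0.0456 and 6.77 FPKM, and Tagln, listed at 0 in 3 libraries, reached 9.99 in the normal 24 hour library and 25.6 FPKM at 40 days. The smooth muscle myosin Myh11 had a ratio of 0.01, and the cardiac gene Tnnt2 stood at 0.15 FPKM at 40 days.

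Genes often used as references were not equally level. Actb stood at 1150 FPKM after 24 hours and 588 at 40 days, a ratio of −0.97, while Tbp and Sdha had ratios of −0.04 and 0.10.

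The difference between 40 days and 24 hours did not follow the difference that 24 hours of withdrawal made in normal cells, which shares no library with it. Over 8959 genes Pearson's r was 0.048 and Spearman's rho 0.091, given as a description across genes, which are not independent.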
